A study of Mus musculus with 11 samples.

Results

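Expression of 10 antioxidant enzyme genes was followed in 11 cultures of im-scWAT cells, a line of mouse inguinal subcutaneous preadipocytes immortalized with SV40 large T antigen. The genes were chosen by symbol: the superoxide dismutases Sod1, Sod2 and Sod3, the peroxide-removing enzymes Cat, Prdx3, Prdx6, Gpx1, Gpx3 and Gpx4, and the heme oxygenase Hmox1. All 10 were found among 29955 gene symbols with a representative transcript, and all 10 had at least 0.1 FPKM in every culture. FPKM, as deposited, are mapped bases per kilobase of exon scaled to all mapped bases of the library, so that levels can be compared between genes.

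The day 0 pair, 2 samples, were confluent preadipocytes before any treatment, and the labels allot 1 to each arm. In the time course, cells were induced with indomethacin, dexamethasone, isobutylmethylxanthine, insulin and T3, with or without 0.5 µM rosiglitazone (ROS, an agonist of the adipocyte receptor PPARγ), and 1 culture of each arm was taken on day 4 and on day 8. Another 5 cultures were differentiated with ROS to day 8 after retroviral transduction. All 5 carried a hairpin against the mouse histone demethylase Jmjd1a (Kdm3a) and a human JMJD1A cDNA behind a viral promoter: the wild type (WT, cultures A and B), the unphosphorylatable S265A, the phosphomimetic S265D, or S265D-H1120Y, which adds a catalytic mutation. The labelled protocol withdraws ROS shortly before day 8 unless otherwise stated, whereas the study's methods keep it to the end, and which applied to each culture was not settled. No culture with the hairpin and an empty vector was analysed here. The labels do not say that samples of a group came from separate cultures. The p-values therefore measure the spread between samples, which may be technical. In the fit of the time course, that spread also holds any difference of the ROS effect between days. Where day 8 cultures with ROS were pooled, it also holds differences between the JMJD1A forms and, with the untransduced culture among them, those of transduction.

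Superoxide escaping from respiration or made by oxidases is converted to hydrogen peroxide by superoxide dismutases, of which the Sod1 product works in the cytosol, that of Sod2 in the mitochondrial matrix and that of Sod3 outside the cell. Peroxide is then removed by catalase in peroxisomes, by peroxiredoxins, which depend mostly on thioredoxin, and by the selenium-containing glutathione peroxidases. Heme oxygenase 1 degrades heme and is a textbook target of the stress-responsive factor NRF2. In adipocytes, differentiation brings many mitochondria and peroxisomes together with lipid storage.

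Files held 3.10 to 5.29 Gb of mapped bases a sample, and the lowest value of any of these genes, Gpx3 in WT B, still rested on 3077 mapped bases. The labelled cell type was checked against markers, and 7 of 8 adipocyte markers lay above the day 0 pair in all 9 later cultures. Adipoq was at most 0.121 FPKM in the day 0 pair and 396 to 1291 in the 9 later cultures, while Lep stayed at or below 0.252. The leukocyte genes Ptprc and Emr1 and the muscle genes Myod1, Myog and Ckm were listed at 0 in every sample. Others of the same lists were not, with Cd68 at up to 21.7 FPKM, Cd14 at up to 5.56 and Acta1 at up to 19.3. Mouse Kdm3a, the target of the hairpin, was at 13.0 to 28.5 FPKM in the 5 transduced cultures and 15.1 to 23.2 in the 6 untransduced samples, with overlapping ranges. Whether reads of the human cDNA were counted in that row is not given in the sources used here, so that it does not check the knockdown. In these bulk samples, fewer cells of a type and less RNA per cell cannot be told apart.

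RefSeq upstream sequences (build GRCm38.p6, the 250 bases before the start) matched 7 of the 10 genes, and those of the 3 genes that rose at both time points are shown here because the results turn on them. Capitals mark the hexamer AGGTCA, the core recognised by nuclear receptors such as PPARγ, on either strand. It was searched for after the expression values were seen, and it is found in 14% of 32851 promoters. Cat lies at chr2:103485154-103485403 (minus strand), Prdx3 at chr19:60874539-60874788 (minus strand) and Sod2 at chr17:13007589-13007838 (plus strand).
Cat: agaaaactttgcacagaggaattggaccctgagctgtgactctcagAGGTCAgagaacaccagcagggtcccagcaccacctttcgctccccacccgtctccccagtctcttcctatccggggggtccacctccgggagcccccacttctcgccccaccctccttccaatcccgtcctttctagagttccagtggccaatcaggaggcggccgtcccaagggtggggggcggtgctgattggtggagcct
Prdx3: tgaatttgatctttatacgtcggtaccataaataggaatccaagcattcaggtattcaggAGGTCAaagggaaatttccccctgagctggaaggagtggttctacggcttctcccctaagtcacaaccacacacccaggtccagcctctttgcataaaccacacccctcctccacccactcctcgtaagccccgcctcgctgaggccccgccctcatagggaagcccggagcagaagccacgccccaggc
Sod2: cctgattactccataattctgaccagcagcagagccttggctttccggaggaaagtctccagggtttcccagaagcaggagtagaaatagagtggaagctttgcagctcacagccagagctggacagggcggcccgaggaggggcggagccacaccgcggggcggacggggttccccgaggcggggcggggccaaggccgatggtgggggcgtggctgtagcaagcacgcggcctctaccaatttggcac
Cat and Prdx3 each held 1 such hexamer and Sod2 held none, and 1 of the starts of Gpx4 had it as well. The PPAR response element, a direct repeat of the hexamer with 1 free base between the copies, occurred in 0.0335% of promoters and in none of these 7 genes. The antioxidant response element core TGACNNNGC occurred in 10.2% of promoters and, of these genes, in Sod1 only. It is in capitals in this stretch at chr16:90220696-90220724 (plus strand), where it lies on the opposite strand.
Sod1: gccaaggtggGCGTGGTCAgactcaggcc
These matches describe letters in a window and not binding. Sod3, Prdx6 and Hmox1 were not matched.

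Sod1 was the most abundant of the 10 genes in 10 of the 11 samples. In the day 0 pair it averaged 699 ± 61.0 FPKM (SD, n = 2), followed by Gpx4 at 361 ± 24.1 and Gpx1 at 189.8 ± 15.3. Hmox1 (76.4 ± 3.89) and Prdx6 (74.9 ± 3.59) did not differ beyond their spread. Below them lay Prdx3 (44.7 ± 1.34), Cat (25.2 ± 0.477), Sod2 (13.8 ± 0.907), Sod3 (10.5 ± 1.67) and Gpx3 (6.69 ± 0.738). In the day 8 culture with ROS, Cat and Prdx3 followed Sod1 and Gpx4, and Gpx1 came after them. The exception to the lead of Sod1 was S265D-H1120Y, in which Hmox1 was higher.

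Differentiation raised the genes for catalase, mitochondrial superoxide dismutase and mitochondrial peroxiredoxin most. At day 4 against day 0, limma called 4 of the 10 genes, 3 higher and 1 lower, where 44.9% of 16400 genes were called (23.3% higher and 21.6% lower). At day 8 against day 0 it called 6 of the 10, 5 higher and 1 lower, where 53% of all genes were called (26.5% higher and 26.6% lower). The median log2 change of the 10 genes was 0.15 at day 4 and 0.53 at day 8, beside 0.01 and -0.03 over all genes tested. The share called was near that of all genes at both times. The 2 comparisons share the day 0 pair.

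**Figure D1:**
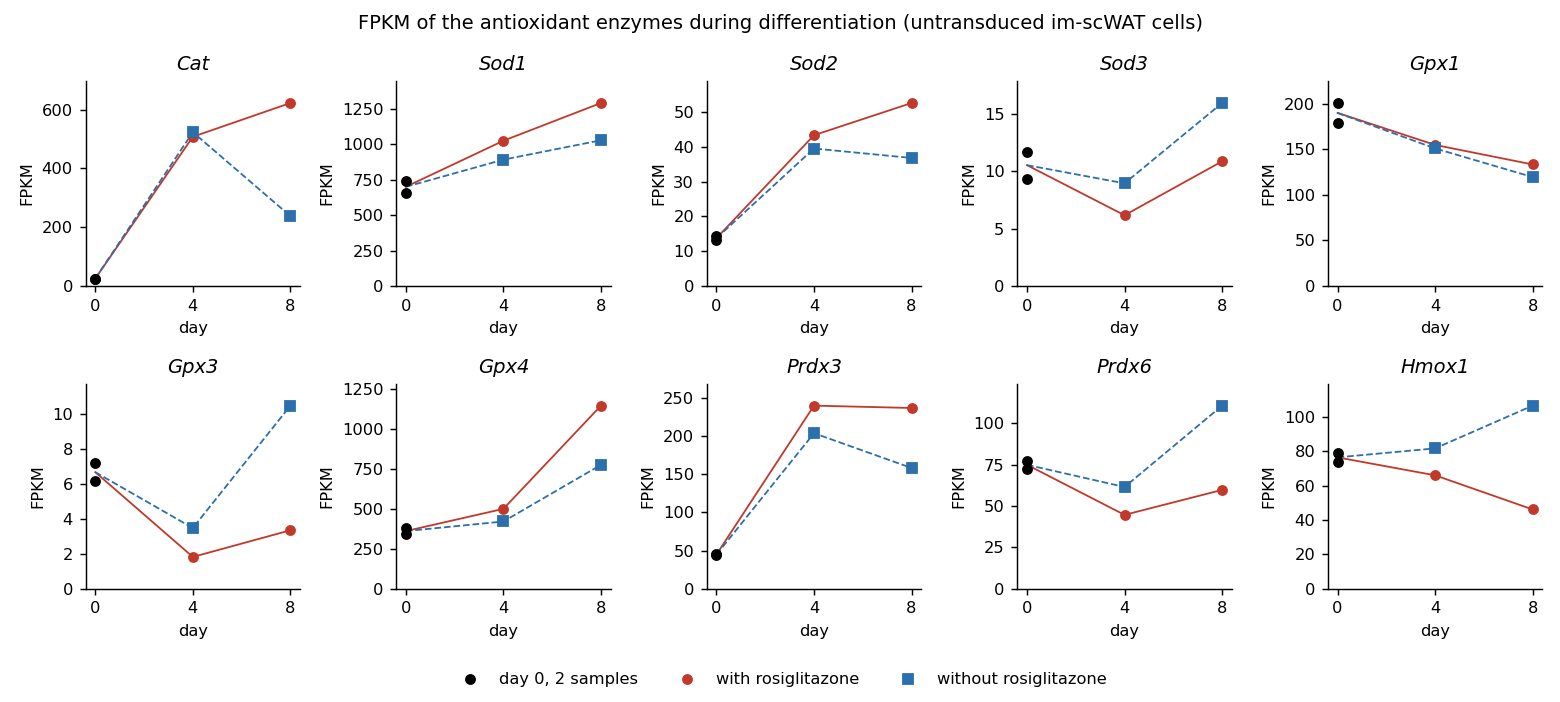
FPKM (vertical axis, from 0, a scale for each gene) of the 10 genes against day of differentiation in the 6 untransduced samples: black, the day 0 pair; red circles, with ROS; blue squares, without ROS; lines join single cultures to the mean of the day 0 pair. Cat goes from 24.9 and 25.6 to 523 and 507 at day 4 without and with ROS and then parts, to 238 and 622.

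Cat, encoding catalase (chr2:103294061-103325310, minus strand, mm9), was at 24.9 and 25.6 FPKM in the day 0 pair, at 523 without and 507 with ROS on day 4, and at 238 without and 622 with ROS on day 8. Every later culture, transduced ones included, lay above 181. Cat rose 20.4-fold at day 4 (log2 fold change 4.35 ± 0.36 (SE), adjusted p = 0.0021, limma) and was 15.2-fold above day 0 at day 8 (3.93 ± 0.36, adjusted p = 0.0021). The log2 change ranged from 3.63 without the day 4 culture lacking ROS to 5.06 without the one with ROS at day 4, and from 3.21 without the day 8 culture with ROS to 4.64 without the one lacking it at day 8. With any 1 library left out it still passed limma (adjusted p between 0.0154 and 0.0386 at day 4 and between 0.0139 and 0.0332 at day 8). Its log2 change at day 4 was higher than that of 98.9% of genes tested.

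Prdx3, the mitochondrial peroxiredoxin (chr19:60939969-60950441, minus strand), was at 45.6 and 43.7 FPKM in the day 0 pair, at 204 without and 240.1 with ROS on day 4, and at 158 without and 237 with ROS on day 8. All later cultures lay above the pair. It rose 4.95-fold at day 4 (adjusted p = 0.0013, limma) and stood 4.33-fold higher at day 8 (adjusted p = 0.0013). Sod2, the manganese superoxide dismutase of mitochondria (chr17:13200705-13210985, plus strand), was at 13.1 and 14.4 FPKM in the pair, 39.5 and 43.4 on day 4 without and with ROS, and 36.8 and 52.6 on day 8. The rise was 3.00-fold at day 4 (adjusted p = 0.0034) and 3.19-fold at day 8 (adjusted p = 0.0024). In a limma fit of all 11 samples, Prdx3 and Sod2 missed the threshold at both days (adjusted p between 0.0563 and 0.0802).

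Sod1, the copper and zinc enzyme (chr16:90220987-90226569, plus strand), began from a high level. It was at 656 and 742 FPKM in the pair, 890.4 and 1024 on day 4 without and with ROS, and 1027 and 1289.55 on day 8. All later cultures were above the pair, and the change of 1.37-fold at day 4 missed the threshold (adjusted p = 0.0616, limma) where that of 1.65-fold at day 8 passed (adjusted p = 0.0152). The day 8 call was lost without any 1 of the day 0 pair or the day 8 cultures (adjusted p between 0.0660 and 0.109). Sod3, the secreted enzyme (chr5:52755043-52760977, plus strand), was at 9.35 and 11.7 FPKM in the pair, 8.95 and 6.17 on day 4, and 15.9 and 10.9 on day 8, and passed neither test (adjusted p = 0.0730 and 0.160).

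The 3 glutathione peroxidases went different ways. Gpx4, which reduces lipid hydroperoxides in membranes (chr10:79516782-79519184, plus strand), was at 344 and 378 FPKM in the pair, 422 and 501 on day 4 without and with ROS, and 777 and 1148.5 on day 8. It was not called at day 4 (1.27-fold, adjusted p = 0.132, limma) and rose 2.62-fold by day 8 (adjusted p = 0.0034). A second transcript of the same locus with a shorter exon length (937 against 995 bases) went from 377 and 414 to 858 and 1267, so that the direction did not depend on the transcript chosen.

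Gpx1, the common intracellular glutathione peroxidase (chr9:108241411-108242673, plus strand), moved the other way, from 179 and 201 FPKM in the pair to 151 and 155 on day 4 and 119 and 133 on day 8, without and with ROS. All later cultures lay below the pair. The change of 0.81-fold at day 4 was not called (adjusted p = 0.141, limma) and that of 0.67-fold at day 8 was (adjusted p = 0.0261), though the latter missed the threshold without any 1 of the 6 libraries (adjusted p between 0.0501 and 0.149). Gpx3, the secreted peroxidase (chr11:54716355-54723889, plus strand), was at 6.16 and 7.21 FPKM in the pair, 3.48 and 1.82 on day 4, and 10.5 and 3.35 on day 8. It fell to 0.39-fold at day 4 (adjusted p = 0.0108), a call lost without any 1 of the day 0 pair (adjusted p = 0.0674 and 0.0894) or without the day 4 culture lacking ROS (0.0793). At day 8 its 2 cultures lay on either side of the pair (adjusted p = 0.569).

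Prdx6, a peroxiredoxin that uses glutathione (chr1:163170243-163181297, minus strand), and Hmox1 (chr8:77617517-77624492, plus strand) passed the test at neither time. Prdx6 was at 72.3 and 77.4 FPKM in the pair, 61.5 and 44.6 on day 4 without and with ROS, and 111 and 59.7 on day 8. Hmox1 was at 73.6 and 79.1 FPKM in the pair, 81.6 and 65.9 on day 4, and 106 and 46.1 on day 8. For both genes the day 8 culture without ROS was the highest of the 6 and the culture with ROS lay below the pair. Between day 4 and day 8, none of the 10 genes was called, where 0.854% of genes were. No gene at all was called without any 1 of the 6 libraries. Gpx4 was 2.06-fold (adjusted p = 0.0731, limma) and Gpx3 2.31-fold (adjusted p = 0.0848) above day 4, and both passed with a pseudocount of 1 (adjusted p = 0.0284 and 0.0498).

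**Figure D2:**
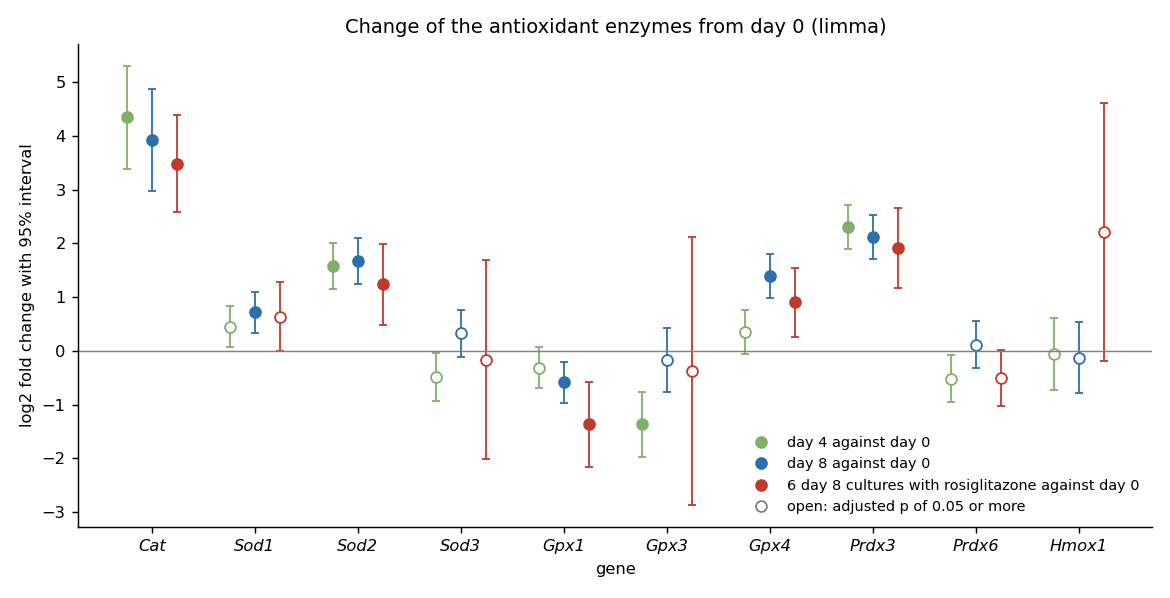
limma log2 fold change from day 0 (vertical axis) with its 95% interval for each gene (horizontal axis): green, day 4; blue, day 8; red, the 6 day 8 cultures with ROS, transduced ones included. Filled points passed an adjusted p of 0.05. Cat, Sod2 and Prdx3 are filled and above 0 in all 3 comparisons, and the red interval of Hmox1 spans 0 (-0.18 to 4.62).

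The effect of ROS at a given day rested on 1 culture an arm, with the spread taken from the day 0 pair. At day 4 none of the 10 genes differed by 2-fold, where 6.7% of 15246 genes did. At day 8, 3 of the 10 did, where 19.2% of 15536 genes did (4% higher and 15.2% lower with ROS). Cat was 2.62 times as high with ROS, Hmox1 0.43 times and Gpx3 0.32 times. No gene passed limma at day 4, at day 8 or over both days: 0% of 16400, with 1862, 5011 and 2901 genes at an unadjusted p under 0.05. The log2 change of Cat with ROS at day 8 was higher than that of 98.6% of genes tested, and that of Hmox1 higher than that of 7.38%.

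Over all genes tested, the median log2 difference with ROS at day 8 was -0.20. With the samples scaled to a common median, limma called 2635 genes and 4 of the 10 at day 8: Cat (1.59 on the log2 scale, adjusted p = 0.0045), Gpx3 (-1.42, 0.0081), Hmox1 (-1.01, 0.0223) and Prdx3 (0.78, 0.0471). With genes under 1 FPKM left out, 895 genes and 3 of the 10 were called (Cat, Gpx3 and Hmox1). The difference of the ROS effect between the days was called for no gene (adjusted p = 0.256 for Cat, 2763 genes at an unadjusted p under 0.05). The beige adipocyte markers moved with the same contrast. Their sum over 7 genes ranged from 12.1 to 265.3 FPKM over the 4 untransduced cultures of days 4 and 8. At day 8, Cidea was at 1.34 without and 40.8 with ROS. General markers differed as well. At day 8 without and with ROS, Fabp4 was at 7631 and 31402 FPKM, Cidec at 436 and 2087, and Adipoq at 709 and 1291. Pparg (231 and 140), Retn (278 and 238) and Lep went the other way. The fibroblast markers Col1a1 (170 and 47.1) and Ly6a (495 and 108) were higher without ROS. The part of any of these markers in the result was not tested.

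When the 5 transduced cultures were taken with the untransduced one, the 6 day 8 cultures with ROS were compared with the day 0 pair. limma called 5 of the 10 genes, 4 higher and 1 lower, where 39.2% of 16867 genes were called (17.8% higher and 21.4% lower). Cat was 11.2-fold (adjusted p = 0.000278), Prdx3 3.78-fold (0.0021), Sod2 2.36-fold (0.0180) and Gpx4 1.88-fold (0.0316) above day 0, and Gpx1 was at 0.39-fold (0.0133). Of these, Sod2, Gpx4 and Gpx1 missed the threshold with either sample of the day 0 pair left out (adjusted p between 0.0789 and 0.186), and Gpx4 also without S265A (0.0547). Over all 9 later cultures, 6 of the 10 genes did not overlap the day 0 pair (Cat, Sod1, Sod2, Gpx4 and Prdx3 above and Gpx1 below), where 43.4% of 17075 genes did not (20.3% above and 23.1% below).

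**Figure D3:**
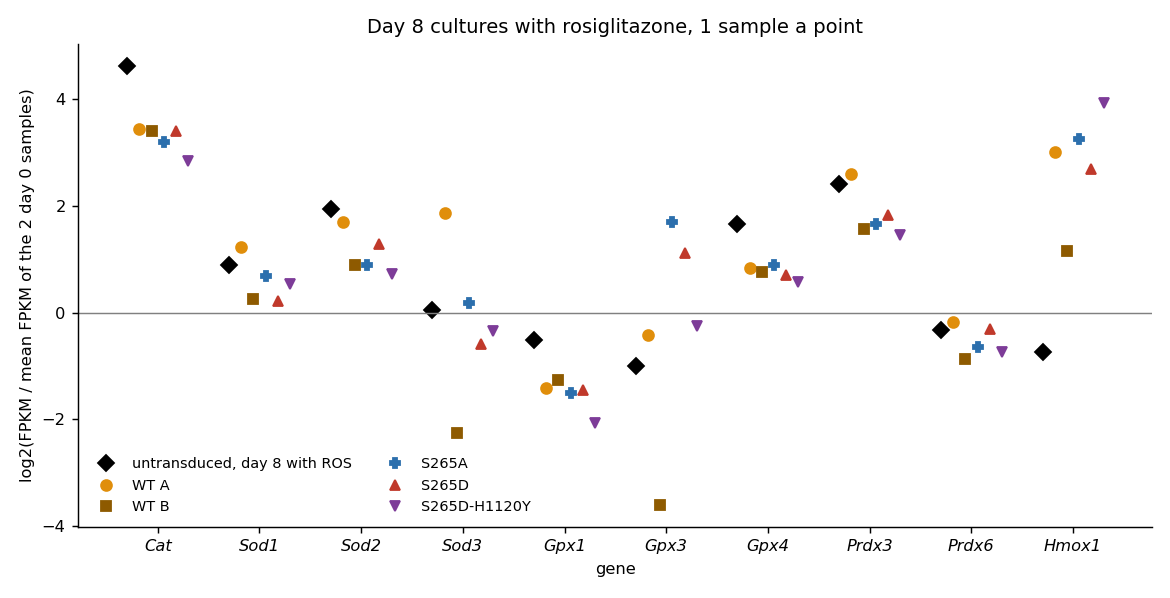
log2 ratio of FPKM to the mean of the day 0 pair (vertical axis) for each gene (horizontal axis) in the 6 day 8 cultures with ROS, 1 sample a point. For Hmox1 all 5 transduced cultures lie above and the untransduced one below 0, and for Sod3 and Gpx3 WT B lies far under the other cultures.

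Hmox1 and Gpx1 were the only 2 of the 10 genes for which the 5 transduced cultures did not overlap the 6 untransduced samples, where 11.5% of 17075 genes did not overlap (4.64% higher and 6.89% lower in the transduced cultures). Hmox1 was at 617 FPKM in WT A, 171 in WT B, 727 in S265A, 494 in S265D and 1169.85 in S265D-H1120Y, against 46.1 to 106 in the untransduced samples. Gpx1 was at 71.1, 78.7, 66.9, 69.2 and 45.0 FPKM in the same cultures, against 119 to 201. WT B was the culture nearest to the untransduced samples for both genes.

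Against the untransduced day 8 culture with ROS alone, the 5 transduced cultures averaged 11.6-fold higher in Hmox1 (log2 3.54 ± 0.91 (SE), adjusted p = 0.134, limma) and were at 0.49-fold in Gpx1 (adjusted p = 0.184). None of the 10 genes was called, where 0.0424% of 16494 genes were. Without WT A, 321 genes were called, again with none of the 10. The Hmox1 difference was higher than that of 99.9% of genes tested. Cat (273, 267, 233, 266 and 181 FPKM in the order above, against 622) and Gpx4 (648, 613, 672, 586 and 541, against 1148.5) were also below the untransduced culture in every transduced one (0.39-fold, adjusted p = 0.107, and 0.53-fold, adjusted p = 0.130). All 5 cultures were on one side of the single untransduced culture for 5 of the 10 genes, where they were for 51.5% of all genes (28.6% above and 22.8% below). Against the day 0 pair, Hmox1 in the 5 transduced cultures alone was called (log2 2.81, adjusted p = 0.0095). With the untransduced culture included it was not (2.22, adjusted p = 0.126). Transduction, the hairpin and the experiment cannot be told apart in this contrast.

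**Figure D4:**
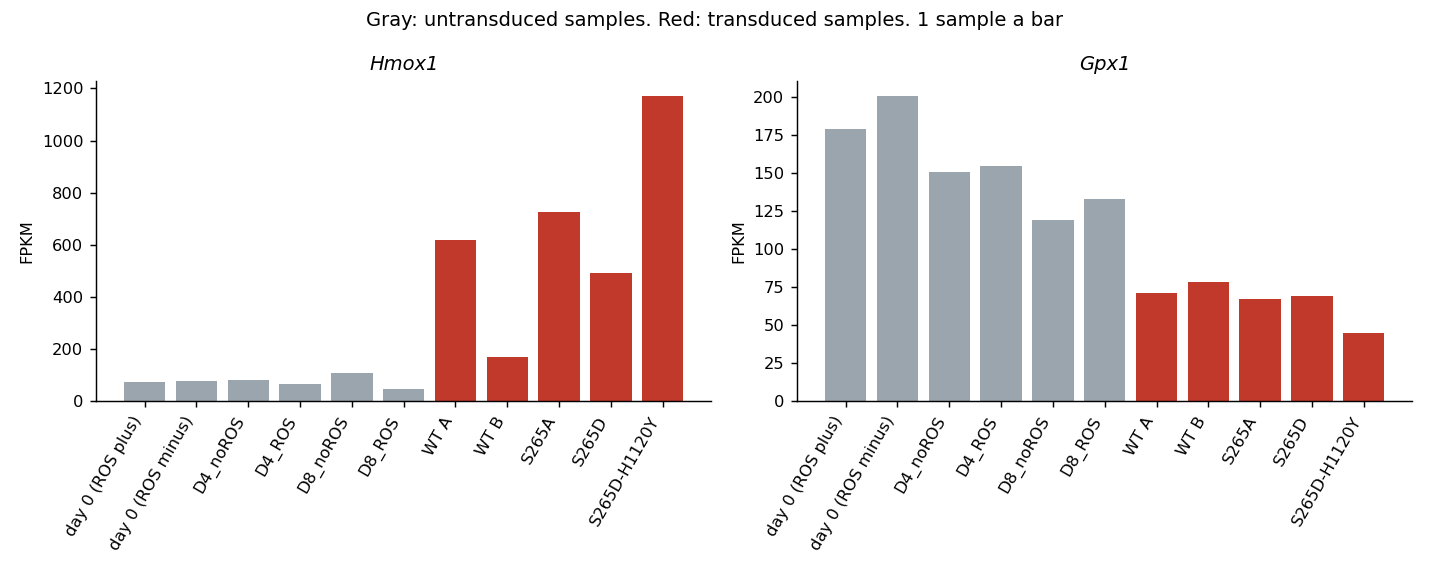
FPKM (vertical axis, from 0) of Hmox1 and Gpx1 in each of the 11 samples (horizontal axis), gray for untransduced and red for transduced cultures. The lowest transduced value of Hmox1 (171, WT B) is above the highest untransduced one (106), and for Gpx1 the highest transduced value (78.7) is below the lowest untransduced one (119).

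Markers of other cells moved with transduction in part. Of 5 macrophage and leukocyte genes found, 2 were at 0 in all samples, and their sum was 7.93 to 8.19 FPKM in the day 0 pair, 1.82 to 5.00 in the other untransduced cultures and 6.29 to 22.7 in the transduced ones, most of the last from Cd68. Of 4 muscle genes, 3 were at 0 and Acta1 reached 19.3 FPKM in WT B. The endothelial sum was at most 1.06 FPKM in untransduced and 4.00 in transduced cultures. Cd68 was at 5.00 to 21.7 FPKM in the transduced cultures and at most 4.30 in the untransduced samples. The part of these markers in the Hmox1 and Gpx1 values was not tested.

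WT A and WT B, which carry the same construct, differed from each other by 2-fold or more in 4 of the 10 genes, all higher in WT A, where 27.2% of 15837 genes differed so (10.8% higher and 16.4% lower). Sod3 was at 38.4 FPKM in the first and 2.22 in the second, a ratio of 17.3. Gpx3 was at 4.98 and 0.550 (ratio 9.06), Hmox1 at 617 and 171 (3.60) and Prdx3 at 270.0 and 133 (2.03). The beige markers differed between these cultures too, with Ucp1 at 12.1 against 0.724 FPKM, and so did Thy1, a fibroblast marker, at 5.36 against 15.1. Their part was not tested. In the day 0 pair, by contrast, none of the 10 genes differed by 2-fold, where 4.9% of 15030 genes did.

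The mutants were compared with this WT pair, and no gene was called in any of the 3 comparisons (0% of 16402 genes by limma, with 107 genes for S265A, 99 for S265D and 187 for S265D-H1120Y against S265D at an unadjusted p under 0.05). By the 2-fold rule, 1 of the 10 genes differed between S265A and the mean of the WT pair, where 11% of 16051 genes did (3.41% higher and 7.55% lower): Gpx3, at 21.8 FPKM in S265A and 7.87 times the mean. For S265D it was 2 of the 10, where 9.58% of 16089 genes differed (4.02% higher and 5.56% lower): Gpx3, at 14.4 FPKM, was 5.21 times the mean, and Sod3, at 7.04 FPKM, 0.35 times. These ratios use the mean of FPKM, whereas limma uses the mean of log2 values. Against the latter, S265D was 7.99-fold in Gpx3 and 0.76-fold in Sod3, so that Sod3 differed by less than 2-fold.

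Both mutants lay above WT A and WT B in Gpx3, whereas their Sod3 values (11.9 and 7.04) lay between those of the 2 WT cultures. Hmox1 in S265D (494) was likewise below WT A (617) and above WT B (171). For such genes the direction depends on the WT culture taken. The paper compares S265A with WT, and S265D and S265D-H1120Y with WT, separately. The labels do not say which WT culture belongs to which comparison. Gpx3 differed from WT by log2 3.59 ± 1.56 (SE) in S265A and by 3.00 ± 1.56 in S265D, with intervals from -1.46 to 8.64 and from -2.05 to 8.05. This spread comes from WT A and WT B alone, and at it differences of the size seen in Gpx3 and Sod3 could not be called. Between S265D-H1120Y and S265D, 2 of the 10 genes differed by 2-fold, where 14.3% of 15760 genes did (5.62% higher and 8.66% lower). Hmox1 was 2.37 times as high in the catalytic mutant (1169.85 against 494 FPKM) and Gpx3 0.39 times (5.62 against 14.4). Cat, at 181 FPKM, and Gpx1, at 45.0, were lower in S265D-H1120Y than in any other day 8 culture with ROS, at 0.68 and 0.65 times S265D.

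In the order WT A, WT B, S265A, S265D and S265D-H1120Y, Sod1 was at 1634, 835, 1121, 811 and 1009 FPKM, with WT A the highest of all 11 samples. Sod2 was at 44.7, 25.7, 25.7, 33.7 and 22.8 FPKM, all above the day 0 pair and below 52.6 in the untransduced culture with ROS. Prdx3 was at 270.0, 133, 141, 158 and 122.9 FPKM. Prdx6 was at 66.4, 40.8, 48.2, 60.9 and 44.8 FPKM, all under the day 0 pair.

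Genes that work beside these enzymes were taken from 6 lists, from which the 4 largest changes past the test are named. Prdx1, Txn2, Ccs, Maff, Mafk, Blvra and Fth1 fall outside that rule and were chosen after their values were seen. Of the other peroxiredoxins and glutathione peroxidases, 6 of 9 were tested, and at day 8 none was called higher and 3 lower, where 53% of all genes were called (26.5% higher and 26.6% lower). Gpx7 (0.37-fold, adjusted p = 0.0112, limma) and Gpx8 (0.41-fold, 0.0041), peroxidases of the endoplasmic reticulum, and the cytosolic Prdx2 (0.61-fold, 0.0175) fell. The cytosolic Prdx1, an abundant member, was at 678 and 781 FPKM in the day 0 pair and 788 and 757 at day 8 without and with ROS, but 338 to 448 in the transduced cultures, which overlapped no untransduced sample. Prdx2 did not overlap either (78.6 to 136 against 149 to 301). Over the 6 lists, 4 of 66 genes did not overlap in this way, 1 higher (Gclc) and 3 lower (with Sephs1), where 11.5% of all genes did not.

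In the list of glutathione and NADPH supply, 7 of 17 genes tested were called higher and 2 lower at day 8, where 26.5% and 26.6% of all genes were. Mgst1, a microsomal glutathione transferase, rose 15.9-fold (adjusted p = 0.0011, limma), from 72.2 and 75.6 FPKM to 774 and 1782 without and with ROS. Slc7a11, the cystine transporter that feeds glutathione synthesis, rose 3.79-fold (0.0092), Mgst3 3.53-fold (0.0032), and Gsta4, a transferase acting on lipid aldehydes, fell to 0.22-fold (0.0086). In the thioredoxin system, 5 of 10 genes were called higher and 3 lower, beside the same shares of all genes. Txnip, which binds and inhibits thioredoxin, rose 15.6-fold (0.0055), the cytosolic Txn1 fell to 0.48-fold (0.0042), Srxn1, which repairs overoxidized peroxiredoxins, to 0.50-fold (0.0158) and Txnrd1, the reductase of Txn1, to 0.51-fold (0.0106). Txn2, the mitochondrial thioredoxin on which Prdx3 depends, rose 1.73-fold (0.0098).

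Of 15 genes of the NRF2, heme and iron list, 5 were called higher and 3 lower at day 8, where 26.5% and 26.6% of all genes were. Osgin1 rose 3.12-fold (adjusted p = 0.0074, limma), whereas Nqo1, a quinone reductase and standard NRF2 target, fell to 0.34-fold (0.0182), the iron exporter Slc40a1 to 0.37-fold (0.0040) and Bach1, a repressor of Hmox1, to 0.56-fold (0.0148). In the transduced cultures, where Hmox1 was high, Nqo1 was at 8.21 to 13.5 FPKM, against 8.87 to 44.3 in the untransduced samples. Of these, 44.3 was a day 0 sample and 8.87 the day 8 culture with ROS. No gene of this list lay apart from all untransduced samples in all 5. Against the day 8 culture with ROS alone, 51.5% of all genes had all 5 on one side. Slc7a11 (2.88 to 11.2 against 1.56), Srxn1 (33.3 to 58.4 against 23.5) and Bach1 (4.85 to 5.93 against 2.93) were higher in all 5. Maff (16.8 to 28.6 against 44.3) and Fth1 (1545 to 1895 against 2655) were lower. Their part was not tested. Of the superoxide sources and copper supply, 4 of 9 genes were called higher and 4 lower, beside the same shares of all genes. Xdh, the purine-degrading oxidase that can make superoxide, rose 6.67-fold (0.0008), and the NADPH oxidase genes Nox4 (0.28-fold, 0.0100), Duox1 (0.33-fold, 0.0026) and Cyba (0.47-fold, 0.0144) fell, Nox4 and Duox1 from under 1 FPKM. Ccs, the copper chaperone of Sod1, rose 1.69-fold (0.0158). The products of Gpx1, Gpx3 and Gpx4 depend on selenoprotein synthesis. Of the genes for it, 4 of 9 were called higher and 1 lower, again beside 26.5% and 26.6% of all genes. Sepp1, the selenium carrier, rose 6.65-fold (0.0013), Sephs2 2.45-fold (0.0044) and Pstk 1.73-fold (0.0194), and Lrp8, a receptor for that carrier, fell to 0.02-fold (0.0002).

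The median log2 change of the lists at day 8 was -0.48 for the other peroxiredoxins and peroxidases, 0.12 for glutathione and NADPH, 0.28 for the thioredoxin system, 0.27 for NRF2, heme and iron, 0.11 for superoxide and copper and 0.13 for selenoproteins, beside -0.03 over all genes. At day 4, where 23.3% of all genes were called higher and 21.6% lower, the counts were 0 higher and 3 lower of the 6 other peroxiredoxins and peroxidases, 8 and 2 of 17 for glutathione and NADPH, 4 and 3 of 10 for the thioredoxin system, 1 and 4 of 15 for NRF2, heme and iron, 4 and 3 of 9 for superoxide and copper, and 4 and 1 of 9 for selenoproteins. In the 6 day 8 cultures with ROS against day 0, where 17.8% of all genes were called higher and 21.4% lower, they were 0 and 4 of 6, 6 and 2 of 17, 4 and 2 of 10, 4 and 1 of 15, 2 and 3 of 9, and 2 and 1 of 9 in the same order. No gene of any list was called for ROS, for a mutant, or for transduction.

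**Figure D5:**
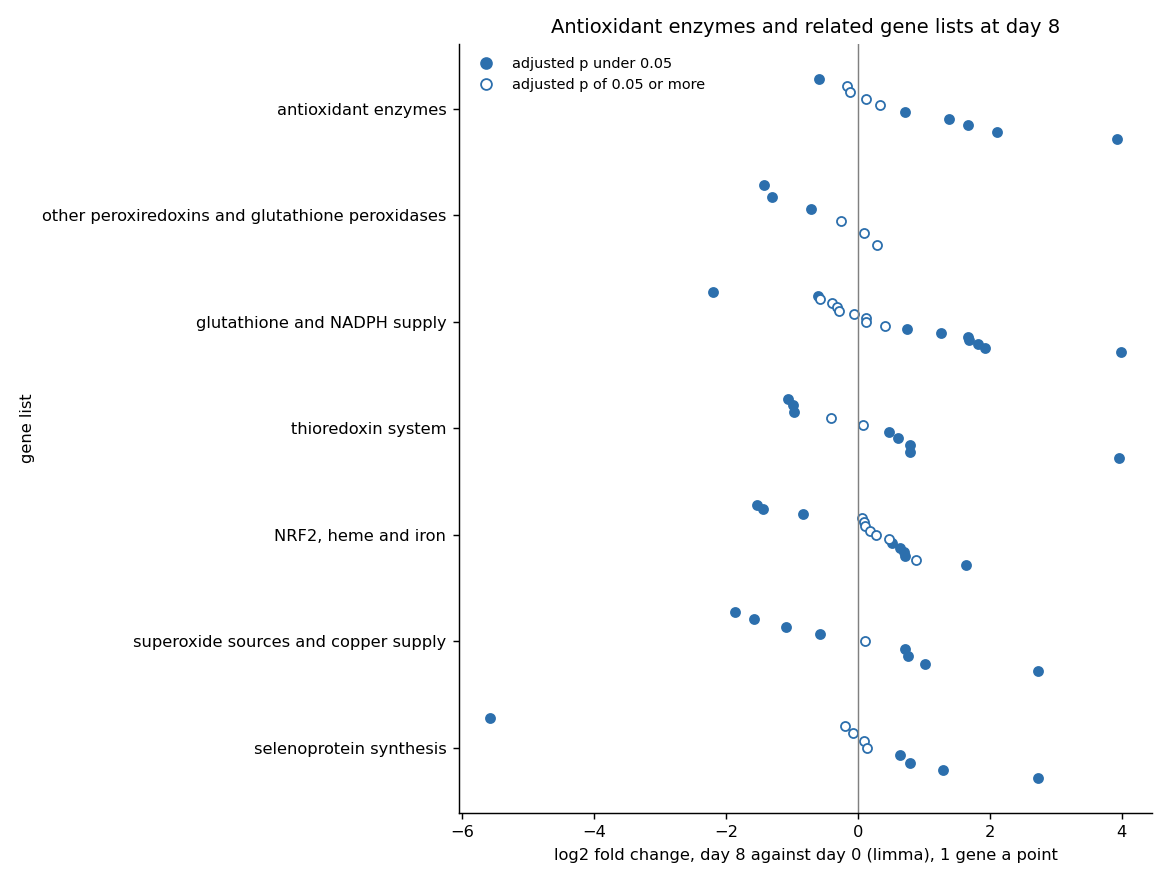
limma log2 fold change at day 8 against day 0 (horizontal axis) of the antioxidant enzymes and of the 6 related lists (vertical axis), 1 gene a point, filled where the adjusted p was under 0.05. Each list except the other peroxiredoxins and glutathione peroxidases has filled points on both sides of 0.

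Likeness to each gene was measured as Pearson's r of log2(FPKM + 0.1) over the 11 samples among 12416 genes with a mean of at least 1 FPKM. All 11 points are libraries of 1 cell line and include day 0, later and transduced groups, so that r carries the differences between those groups and is given as a description. For Cat the closest named genes were Rnf144a and SIK2 (r = 0.99 for both), after a transcript with no gene name. For Sod2 they were Acadl, Acadvl and Mmd (0.99 each). For Prdx3 they included Sfxn1 (0.99). For Hmox1 they were App (0.98), Car9 (0.97) and Higd1a (0.96), and for Gpx1 Polh (0.98), Sart3 (0.97) and Chaf1a (0.97).

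For Gpx4 the closest row was another transcript of its own locus under the spelling GPx4, followed by Mrpl27 and Grcc10 (both 0.97). For Sod1 they were Smpd2 (0.97), Rnf7 (0.96) and Pam16 (0.95). The genes closest to Sod3 (Pop7 at 0.95, Mark4 and Zbtb7a), to Prdx6 (among them Irx1 at 0.90 and Kctd7) and to Gpx3 (Arhgef7 at 0.84, Pdlim4, Galnt2) were less like them. Among the 10 genes themselves, r was 0.96 for Prdx3 with Cat, 0.97 for Prdx3 with Sod2 and 0.93 for Sod2 with Cat.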

How the data were processed

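RNA of 11 cultures was sequenced after TruSeq library preparation. Per the study's methods, the authors aligned reads to UCSC transcripts and the mouse genome (mm9) with a Burrows-Wheeler aligner, realigned them with their own programs, and deposited for each transcript and strand the FPKM (mapped bases per kilobase of exon and megabase mapped), the log10 and log2 of FPKM, and a signal of mapped bases. The handling of reads that match several genes is not given in the sources used here. Only the sense FPKM of the representative transcript of each symbol, 1 sample a file, was analysed here, with mapped bases for depth. Totals were 3.10 to 5.29 Gb a sample. The 10 genes and all lists were chosen with earlier results of these data known.

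Fits used limma 3.58.1 (R 4.3.3) on log2(FPKM + 0.1), so that fold changes of low genes are understated, over genes with at least 0.1 FPKM in a sample of the fit, with Benjamini-Hochberg adjustment over all genes and a threshold of 0.05. The time course was fitted with day and ROS as terms, ROS within a day and the mutants with group means, and the pooled comparisons with 2 group means. These fits leave 1 to 6 residual degrees of freedom. Single cultures were also compared by a ratio of at least 2 or at most 0.5. The named genes are all 10, the 3 most alike to each over the samples, and up to 4 of each list with the largest change past the test. Scripts were tested on simulated data. Alternatives were a pseudocount of 1, no filter, a filter at 1 FPKM, the transcript with the highest mean, median scaling, limma's trend, other fits and leaving out libraries. Of the last, leaving out single-culture groups was added after seeing the data. Starts are given 1-based.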

Additional observations from a re-analysis of the deposited data

Results flagged for a closer look

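Each deposited file also holds antisense values, which no comparison above used. For all 10 genes the highest antisense FPKM among the 9 later cultures was above that of the day 0 pair. It rested on more than 300 mapped bases (3 reads of 100 bases). A maximum over 9 samples mostly exceeds one over 2 even where nothing differs. The share of all genes that meet this rule was not counted, so that the count says nothing particular about these genes. It was 7.24 for Sod1 (WT A), 3.39 for Hmox1 (WT A), 3.12 for Gpx4 and 1.07 for Cat. It was 0.269 for Prdx3, 0.203 for Sod2, 0.197 for Gpx1, 0.149 for Gpx3, 0.0890 for Prdx6 and 0.0476 for Sod3. At these highest values the antisense share of a gene's 2 strands was between 0.0804% (Prdx6) and 0.677% (Gpx3), where 1.52% to 2.28% of all mapped bases of a library were antisense. Over all 11 samples the share ranged from 0% to 5.35% for Gpx3, which went above that range, and from 0% to 1.75% for Sod3, and was at most 0.547% for the other 8 genes. The kit and the counting as the sources give them do not settle whether these are transcripts, and no cause was tested.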

How the results depend on the processing

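Over 6 alternatives and the other fits, 767 of 800 values of single genes kept their direction and their side of the threshold. Another 25 passed it newly and 8 no longer passed. The values cover 110 results, of which the main fits called 4 at day 4, 6 at day 8 and 5 for the 6 day 8 cultures with ROS. Most of the 800 are therefore of results that were not called, and do not measure how stable the calls are. At day 4, 4 of the 10 genes were called, 7 with a pseudocount of 1 and 1 (Cat) in a fit of all 11 samples. At day 8 it was 6, and 2 (Cat and Gpx4) in the fit of all 11. For day 8 against day 4 it was 0, and 3 with a pseudocount of 1, 1 with the filter at 1 FPKM and 4 with limma's trend. For ROS at day 8 it was 0, then 3 with that filter and 4 with median scaling. Without 1 library the counts were 3 to 5 at day 4, 4 to 5 at day 8 and 2 to 6 for the 6 day 8 cultures with ROS against day 0 (5 with all, 2 without either day 0 sample, 6 without the untransduced culture). In the mutant comparisons no gene was called under any setting. Over all genes, the calls at day 4 went from 7370 to 1454 in the fit of all 11 samples and those at day 8 from 8696 to 2556. Without either day 0 sample they were 2355 and 2091 at day 4 (3104 without the day 4 culture lacking ROS), 3438 and 3984 at day 8 (4762 without the day 8 culture with ROS), and 3119 and 2947 in place of 6617 for the 6 cultures. Those of day 8 against day 4 went from 140 to between 0 and 1389. The cause was not tested.

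Leaving out 1 library turned the sign of these uncalled log2 changes: Hmox1 at day 4 (-0.51 to 0.39), at day 8 (-0.57 to 0.33) and between them (-0.52 to 0.38), Gpx3 (-0.52 to 0.20) and Prdx6 (-0.095 to 0.33) at day 8, Sod2 (-0.10 to 0.28) and Cat (-1.14 to 0.29) between day 4 and day 8, and Cat with ROS over both days (-0.044 to 1.39). In the 6 day 8 cultures against day 0, Sod3 ranged from -0.57 to 0.24 and Gpx3 from -0.78 to 0.23, and in transduced against untransduced cultures Sod3 from -0.78 to 0.24, each above 0 without WT B. No paired analysis was possible from the labels. The replicate numbers of the day 0 samples only name them, and no 2 groups share numbers that tie their cultures. The labels also do not tie WT A or WT B to particular mutants.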
